A study of Mus musculus with 2 samples.

Results

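The strongest CTCF peaks of the mouse embryonic limb were the 825 sites on chromosomes 1 to 19 whose signal in the optimal list was 350 or more. They were chosen by that measured signal from 48806 autosomal peaks of a list of 49970. The optimal list is the deposited set of peaks that its name says passed a filter on the irreproducible discovery rate (IDR), a measure of reproducibility between replicates. Signal is the value that the depositors gave each peak. How it was normalised is not given, so it is treated as a value on the scale of its own list. CTCF chromatin immunoprecipitation followed by sequencing was done on limbs of B6NCrl mouse embryos at 14.5 days, of both sexes. The limbs of several dissections were pulverised and pooled, and the 2 libraries are numbered as biological replicates 1 and 2 in the labels, which also give both the same identifier for the tissue sample. No treatment or altered allele is named, and all libraries form 1 group, so no comparison between groups was possible. The labels do not settle whether the libraries came from separate pools, so the spread between them may be technical. Whole limbs hold many cell types, and more cells with a bound site cannot be told apart from stronger binding in each cell. The lists hold no expression values, so the tissue label could not be checked against marker genes, and they hold no read counts, so read depth is unknown.

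CTCF is a DNA-binding protein with a row of zinc fingers that reads a long, non-palindromic motif. It halts the cohesin ring as that ring extrudes a chromatin loop, and loops tend to form between CTCF motifs that face each other. In the limb, such loops and the domain borders at CTCF sites lie around the Hox clusters and around Shh, where distant enhancers act on patterning genes.

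The sequences under these peaks are shown first, because much of what follows turns on how CTCF motifs are arranged within a peak. The motif was a 19 bp matrix learned on 1000 strong peaks below the threshold of 350, so that no member entered it. Letters follow the mm10 reference (assembly GRCm38.p6), 5′ to 3′, and capitals mark the 19 bp matched to the matrix. The first 4 peaks each hold a pair of motifs and are printed on the forward strand of the genome, and the fifth holds a single motif and is printed on the strand of that motif. The last 2 had no motif within 50 bp of the summit, the highest point of a peak, and 61 bp centred on the summit are printed.
Fnbp1l peak, chr3:122638803-122638884, forward strand, both motifs on the reverse strand: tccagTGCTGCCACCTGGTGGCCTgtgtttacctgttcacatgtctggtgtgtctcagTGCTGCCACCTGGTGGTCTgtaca
Snx19 peak, chr9:30480624-30480705, forward strand, both motifs on the forward strand: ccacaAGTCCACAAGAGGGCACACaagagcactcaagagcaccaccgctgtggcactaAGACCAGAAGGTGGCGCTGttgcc
Rbm19 peak, chr5:120102923-120102997, forward strand, both motifs on the reverse strand: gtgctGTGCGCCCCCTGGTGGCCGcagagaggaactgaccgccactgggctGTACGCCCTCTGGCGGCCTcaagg
Fam129b peak, chr2:32912588-32912652, forward strand, motifs facing each other: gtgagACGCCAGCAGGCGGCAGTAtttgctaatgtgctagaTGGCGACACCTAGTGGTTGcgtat
Slc16a8 and Pick1 peak, chr15:79243355-79243398, forward strand: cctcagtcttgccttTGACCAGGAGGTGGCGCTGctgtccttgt
Epcam peak, chr17:87571778-87571838, forward strand: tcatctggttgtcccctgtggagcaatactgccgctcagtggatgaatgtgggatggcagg
Tprgl peak, chr4:154159185-154159245, forward strand: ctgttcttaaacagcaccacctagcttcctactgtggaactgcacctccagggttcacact

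A CTCF motif lay within 50 bp of the summit in 809 of the 825 peaks (98.1%, interval 96.9 to 98.9). Intervals here and below are exact 95% Clopper-Pearson intervals, and they cover counting error only. Peaks are not independent replicates, so shares are given as descriptions and no test was made. Of the 47981 other autosomal optimal peaks, 81.4% had a motif, with 97.2% at signals of 200 to 350 and 78.9% below 200. A motif was counted where its match score reached 7.07, which 5% of windows lying 1 kb from the summits also reached. At the members' own windows moved by 1 kb, 6.0% had such a match. The peaks of 200 to 350 include those used to learn the matrix. On even-numbered chromosomes, which gave no peak to it, 97.7% of members and 96.9% of the 200 to 350 peaks had a motif. The members and the next weaker peaks were thus nearly level in the presence of a motif.

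A second CTCF motif beside the first was where they differed. It was counted where another match, not overlapping the first, had its centre within 100 bp of the summit. This was so in 219 members (26.5%, interval 23.6 to 29.7), in 9.63% of the peaks of 200 to 350 (8.94 to 10.4) and in 6.99% of those below 200. Over all other autosomal optimal peaks the share was 7.36%. Windows of the same width moved by 1 kb held a match at 10.4% for members and 7.87% for other peaks, with no first motif required there. The 7.36% covers peaks without a first motif, which could not count, so it cannot be set level with the 7.87%. Of the 39073 other peaks with a first motif, 3531 had a second. Among members 98.1% had a first motif, and their 26.5% was above the 10.4% of sequence nearby. With both motifs held to a stricter score of 12.4, which 1% of flanking windows reached, 96 members (11.6%, 9.53 to 14.0) had a pair, against 2.12% at 200 to 350 and 0.642% below 200.

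The share of all peaks with a second motif was larger at each step in signal. It was 6.79% below a signal of 50, 8.19% at 200 to 250, 9.79% at 250 to 300 and 13.2% at 300 to 350. Among members it was 18.0% at 350 to 400 (99 of 551, interval 14.8 to 21.4), 32.6% at 400 to 450 (61 of 187, 26.0 to 39.8) and 67.8% at 450 and above (59 of 87, 56.9 to 77.4). With the stricter score these last 3 shares were 5.26%, 15.0% and 44.8%. The share with any motif at all moved little over the same range, from 97.6% at 350 to 400 to 97.7% at 450 and above. It was lower in weak peaks, at 69.7% below 50 and 96.8% at 200 to 250, and a second motif was counted only beside a first. Among peaks with a first motif, 1487 of 15268 had a second below 50 and 263 of 3107 at 200 to 250. The larger share at 200 to 250 than below 50 was thus not seen among peaks with a first motif. Of the 10 strongest peaks 9 had a second motif, of the 20 strongest 17, of the 50 strongest 33 and of the 100 strongest 69.

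**Figure D1:**
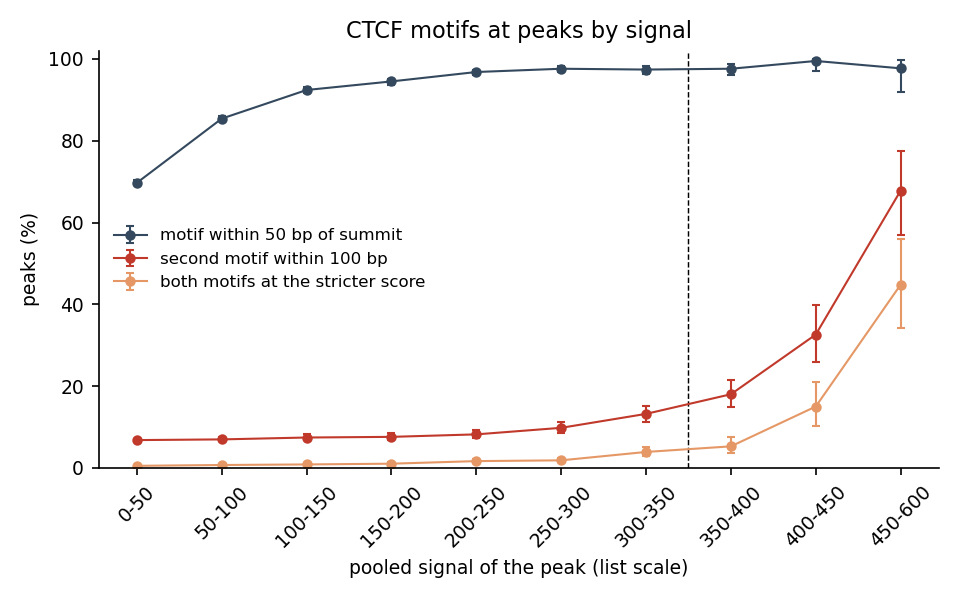
Share of autosomal optimal peaks (%, vertical) with a motif within 50 bp of the summit (dark blue), a second motif within 100 bp (red) and both motifs at the stricter score (orange), by pooled signal on the list's scale (horizontal), where bars are exact 95% binomial intervals over peaks and the dashed line is the threshold of 350. The dark line is nearly flat above 200, while the red line goes from 13.2% at 300 to 350 to 67.8% at 450 and above.

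Most pairs ran in the same direction. Both motifs lay on the same strand in 156 of the 219 members with a pair (71.2%, interval 64.7 to 77.1), against 53.7% at 200 to 350 and 45.3% below 200. Of the remaining pairs, 34 faced each other and 29 faced apart. The motif centres lay a median of 59 bp apart (quartiles 46.5 and 72.5). Of the 219 pairs, 155 (70.8%, 64.3 to 76.7) were 40 to 80 bp apart, against 51.4% at 200 to 350 and 45.5% of the pairs in all other peaks. The summit fell between the motifs in 182 of 219 (83.1%), against 62.1% in other peaks with a pair. In members with a pair, the median distance from the summit was 18 bp for the first motif and 39 bp for the second. With a single motif it was 3 bp. The first was the best match within 50 bp of the summit, and the second was sought within 100 bp. Part of that order of distance is thus set by the search, and in other peaks with a pair the medians were 9 and 49 bp. The second could score higher, as near Slc38a4, with 17.8 for the first and 23.6 for the second.

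Of the pairs printed above, that at Fnbp1l had the highest score for the weaker motif, with motifs 53 bp apart on the same strand that scored 22.8 and 21.9. It had 286.5 in replicate 1 and 260.7 in replicate 2 (273.6 ± 18.2, SD, n = 2). The Snx19 peak, whose motifs are also 53 bp apart, had 278.6 and 265.3 (271.9 ± 9.4, SD, n = 2). The Rbm19 peak had motifs 46 bp apart, of which the first scored 22.8 and the second 12.8, and replicate values of 321.8 and 278.4. Both libraries placed all these sites among their 10 strongest. The Slc16a8 and Pick1 peak reached a similar signal, 289.9 and 284.7, with a single motif of score 19.7, so a pair was not found in every peak at the top. It was the 1 peak without a second motif among the 10 strongest.

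The replicate values of members with a pair and with a single motif are given as a description, since the replicate signals make up the pooled signal that chose the members. The median was 212.6 in replicate 1 and 197.7 in replicate 2 for the 219 with a pair, against 196.4 and 183.4 for the 590 with a single motif. The pooled signal had quartiles of 372 and 453 with a pair and of 362 and 400 with a single motif, so the distributions overlapped. Peaks with a pair were also wider, at a median of 293 bp against 258 bp. Among members, width was also larger at higher signal. The median was 257 bp at 350 to 400, 274 bp at 400 to 450 and 304 bp at 450 and above. Whether peaks with a pair are wider at equal signal was not tested. The median score of the first motif was 18.51 with a pair and 18.77 without. Across the 809 members with a motif, the rank correlation of signal with that score was 0.0103, given as a description over peaks of the same libraries. That value covers only the narrow range of signal left by the threshold. Over all autosomal optimal peaks with a motif, the median score was 14.76 at signals below 200, 17.94 at 200 to 350 and 18.64 in members. The matrix was learned on strong peaks of the 200 to 350 group, so part of that order may be set by how it was learned.

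Base use within and around the first motif was compared over the same windows. The bases used by at least 50% of the members' motifs spell TGGCCACCAGGGGGCGCNN, where N marks a position without such a base. For peaks below 200 they spell NNNCCAGNAGNGGGCNNNN. Each position carries between 0 and 2 bits of information, and over the 19 positions the sum was 18.6 bits in members, 17.8 at 200 to 350 and 15.9 below 200. The matrix picked these windows, which sets part of that value. The 20 bp on either side were not used to pick them. There the sum was 2.09 bits upstream and 1.62 bits downstream in members, 1.4 and 1.04 at 200 to 350, and 1.15 and 0.876 below 200.

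Single positions show where that preference lies. Counting from 1 at the first base of the motif, T or C stood at position 1 in 85.8% of members, 79.0% at 200 to 350 and 59.4% below 200. The dinucleotide CG at positions 15 and 16, which can be methylated on its cytosine, was present in 44.7%, 39.7% and 27.7%. Upstream, G at position -12 was found in 49.9% of members, 43.2% at 200 to 350 and 39.2% below 200. Downstream, G at position 22 was found in 53.6%, 47.2% and 32.1%. CTCF is known to contact bases upstream of the core motif with its last zinc fingers and bases downstream with its first ones.

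**Figure D2:**
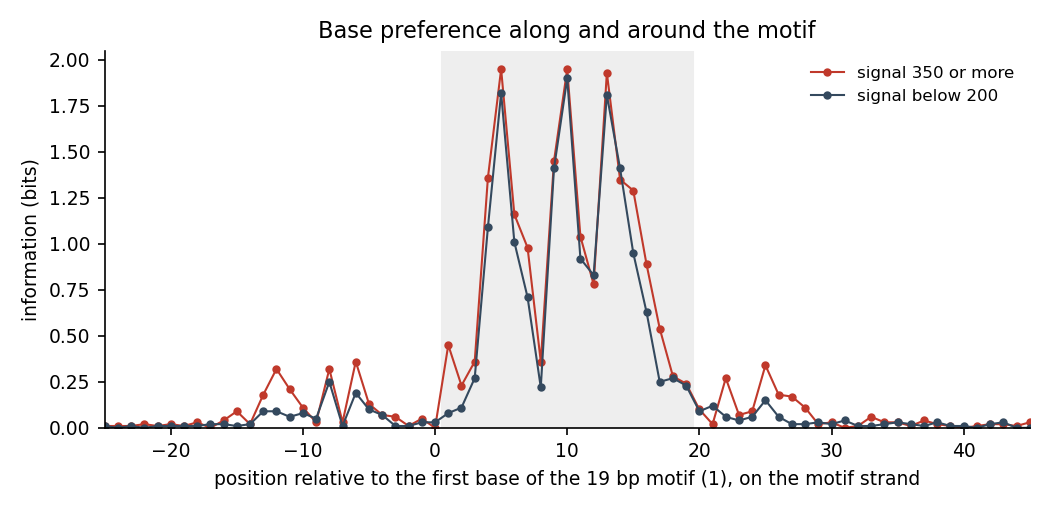
Information per position (bits, vertical) against the position relative to the first base of the 19 bp motif on the motif strand (horizontal), for members with a motif (red) and for peaks below 200 (dark blue), with the motif shaded. The red line lies above the dark one over most of the motif and around positions -12, -6, 22 and 25, and below it at a few positions, among them 12, 14 and 21.

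The 16 members without a motif near the summit had signals from 352.2 to 472.0, with a median of 373.2. The strongest was in an exon of Rdh13, a retinol dehydrogenase gene, on chromosome 7 (summit 4427414), with 252.7 and 224.3 in the replicates, and its best match, of score 12.6, lay beyond the 50 bp window. The Epcam peak printed above lay on chromosome 17, 154 bp from a TSS and 64171 bp upstream of Epcam, an epithelial cell adhesion gene, and had 236.6 and 226.8. The Tprgl peak had 207.7 and 210.2, and its best match scored 4.4. A peak within Ppp1r9a on chromosome 6 had 192.7 and 194.1. A motif score below the threshold says only that these windows do not match this matrix.

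All 825 members had a summit within 100 bp in both replicate lists, at most 29 bp away in replicate 1 and 23 bp in replicate 2. Their signal ran from 161.7 to 321.8 with a median of 198.9 in replicate 1, and from 150.5 to 284.7 with a median of 185.9 in replicate 2. The replicates are part of the pool that chose the members, so this describes the choice and supports nothing. The sum of the replicate signals was 0.984 to 1.02 times the pooled signal. Of the members, 736 ranked in the top 825 autosomal peaks by replicate 1 alone, 738 by replicate 2 alone, and 649 (78.7%) by both. Every member ranked there in at least 1 library, and the lowest rank was 1665 in replicate 1 and 1770 in replicate 2, in lists of 300000.

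The log2 ratio of replicate 1 to replicate 2, after each was scaled by its median over the optimal peaks, had an SD of 0.11 over members, 0.16 over the peaks of 200 to 350 and 0.54 below 200. A peak 124 bp upstream of Sh3gl1, which encodes an endophilin, leaned furthest to replicate 1, with 221.4 against 166.8 (log2 ratio 0.33). A peak near Wsb1 leaned furthest to replicate 2, with 169.7 against 198.0 (log2 ratio -0.30). The peak nearest Rbm20 and 48533 bp from the start of Smc3, a core cohesin gene, had 202.1 and 155.6.

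**Figure D3:**
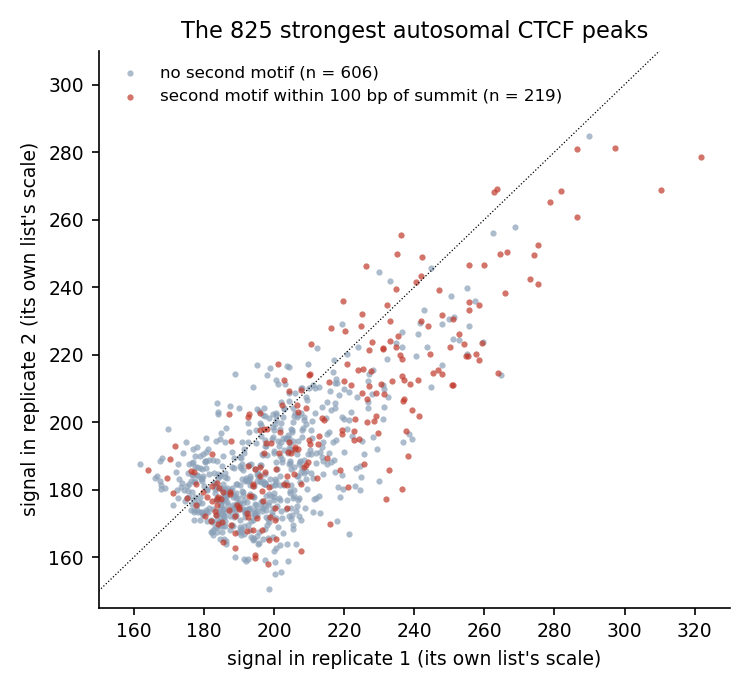
Signal of the 825 members in replicate 1 (horizontal) and replicate 2 (vertical), each on its own list's scale, with the line of equal values dotted and members with a second motif in red. Red points are the majority at the top right, and most points lie below the line, as the medians of 198.9 and 185.9 do.

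The threshold cut through a continuous range. Just inside lay a peak near Samd5 on chromosome 10 with 350.01 (172.5 and 177.4 in the replicates), 1 near Stard10 on chromosome 7 with 350.08 (182.6 and 166.6) and 1 near Misp on chromosome 10 with 350.1 (183.7 and 168.8). Just outside lay peaks near Gm20219 on chromosome 17 with 349.91 (184.9 and 165.2), near Gm11983 on chromosome 11 with 349.88 (173.7 and 178.7) and near Ddx11 on chromosome 17 with 349.87 (174.1 and 176.3). These 6 peaks cannot be told apart by their replicate values.

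By genomic class, 334 members (40.5%, interval 37.1 to 43.9) were intergenic, 248 (30.1%, 26.9 to 33.3) intronic, 196 (23.8%, 20.9 to 26.8) at promoters and 47 (5.7%, 4.22 to 7.5) in exons. A promoter summit lay at most 1 kb from a transcription start site (TSS), whichever GENCODE M21 transcript it belonged to. At signals of 200 to 350 the shares were 40.8% intergenic, 35.7% intronic, 18.1% promoter and 5.49% exon, and below 200 they were 33.8%, 39.4%, 21.6% and 5.23%. The promoter share of members was thus above that of the next weaker peaks and near that of the weakest, so it did not move in 1 direction with signal. Summits within a protein-coding gene made up 41.1% of members (37.7 to 44.5). The share was 45.5% at 200 to 350 (44.3 to 46.7) and 52.6% over all other peaks. Summits in coding sequence made up 1.7% of members (0.931 to 2.83), 2.42% at 200 to 350 (2.06 to 2.81) and 3.79% over all other peaks. For coding sequence, the intervals of members and of peaks of 200 to 350 overlap.

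**Figure D4:**
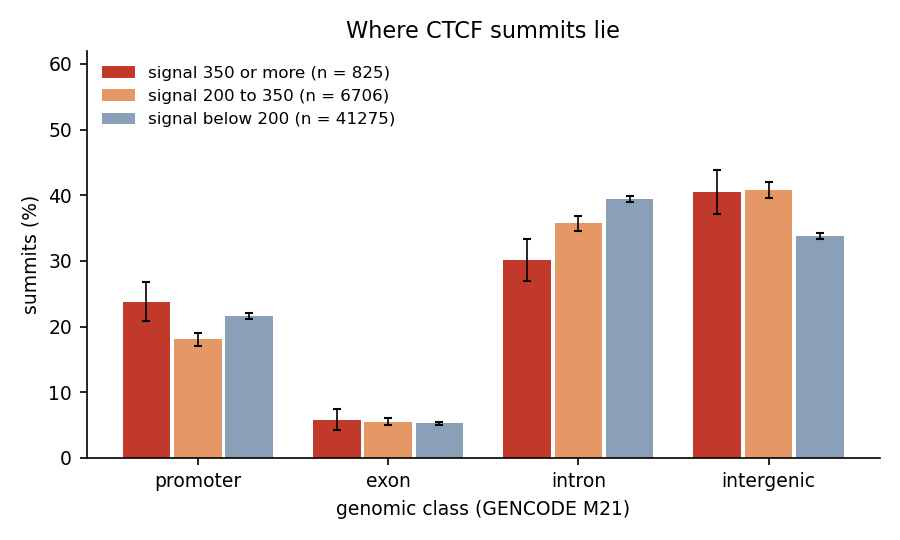
Share of summits (%, vertical) in each genomic class (horizontal) for members (red), peaks of 200 to 350 (orange) and peaks below 200 (blue), with exact 95% binomial intervals as bars. Intronic shares go from 39.4% to 35.7% to 30.1% toward the strongest peaks.

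Promoter members included some of the highest sites. A peak 93 bp upstream of Med4, a Mediator subunit gene, on chromosome 14 (summit 73509932) had 268.7 and 257.8 (263.2 ± 7.7, SD, n = 2). A peak 63 bp upstream of Rrp1, a ribosomal RNA processing gene, on chromosome 10 (summit 78413106) had 262.6 and 256.0 with a motif score of 7.2, just past the threshold. The site 57 bp upstream of Comtd1 had 255.5 and 246.6. Median signal differed little between classes, from 378.4 in introns to 384.4 at promoters, and a second motif was present in 24.0% of promoter, 27.0% of intronic, 27.2% of intergenic and 29.8% of exonic members, with intervals that overlap.

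Inside genes, the strongest exonic member was in A830031A19Rik, with 255.2 and 239.7, and the next in Gna15, a G protein subunit gene, on chromosome 10 (summit 81502832), with 264.7 and 214.0. It stood 16 in rank in replicate 1 and 113 in replicate 2. Armc9 held an exonic member of 264.0 and 214.7, with motifs 50 bp apart on the same strand. In introns, Pink1, which encodes a mitochondrial kinase, held a member of 275.2 and 240.9 with motifs 32 bp apart. Among the intergenic members, Gbx1, a homeobox gene, had one 3048 bp upstream with 264.5 and 249.8.

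Members lay in sequence with more G, C and CpG than other peaks. The window of 100 bp on either side of the summit had a median GC content of 55.22% in members, 51.74% at 200 to 350 and 49.25% below 200, and a median of 5, 4 and 2 CpG dinucleotides. Promoter members had 59.2% GC and 11 CpG, and intronic members 53.7% and 4. Over 10 kb the medians were 49.05%, 47.2% and 45.62%, so the surrounding sequence differed in the same order. Whether GC content in the sequenced fragments moves the signal was not tested. Members with a pair of motifs and members with a single motif had the same median GC content, 55.22%.

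Soft-masked repeats held 33 member summits (4.0%, interval 2.77 to 5.57), close to the 4.67% of peaks of 200 to 350 and below the 19.8% of those under 200. The strongest was 78037 bp upstream of Prok2, a prokineticin gene, on chromosome 6 (summit 99804429), with 248.0 and 229.1 and a motif score of 22.6. In Ethe1 on chromosome 7 a repeat member of 236.0 and 220.0 held motifs 79 bp apart on the same strand.

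Consecutive members lay a median of 833 kb apart (806 pairs, quartiles 273 and 2970 kb), with a median of 33.5 weaker optimal peaks between them. Another member lay within 100 kb for 200 of the 825 (24.2%, interval 21.4 to 27.3) and within 10 kb for 36 (4.36%). Of the 806 pairs, 16 had no other optimal peak between them. A member's nearest optimal peak of any strength was a median of 5315 bp away, against 6024 bp for peaks of 200 to 350 and 8076 bp for those below 200.

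The closest pair lay 588 bp apart on chromosome 2, far downstream of the first TSS of Prex1, an exchange factor for Rac. Its summits were 166564095, with 185.7 and 174.4, and 166564683, with 188.7 and 174.6, and both motifs were on the reverse strand. Another member, in an intron of Prex1 (summit 166592683) had 199.9 and 197.8, and no other gene was the nearest to 3 members. At Gnai2, an inhibitory G protein gene on chromosome 9, members 1001 bp apart had 169.0 and 180.6, and 179.7 and 172.5, with motifs facing apart. In an intron of Dnah17, an axonemal dynein gene on chromosome 11, members 1138 bp apart had 240.4 and 241.4, and 213.6 and 189.6. The longest stretch without a member was 40.7 Mb on chromosome 12, between Atxn7l1 and Syt16, and it held 460 weaker optimal peaks.

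**Figure D5:**
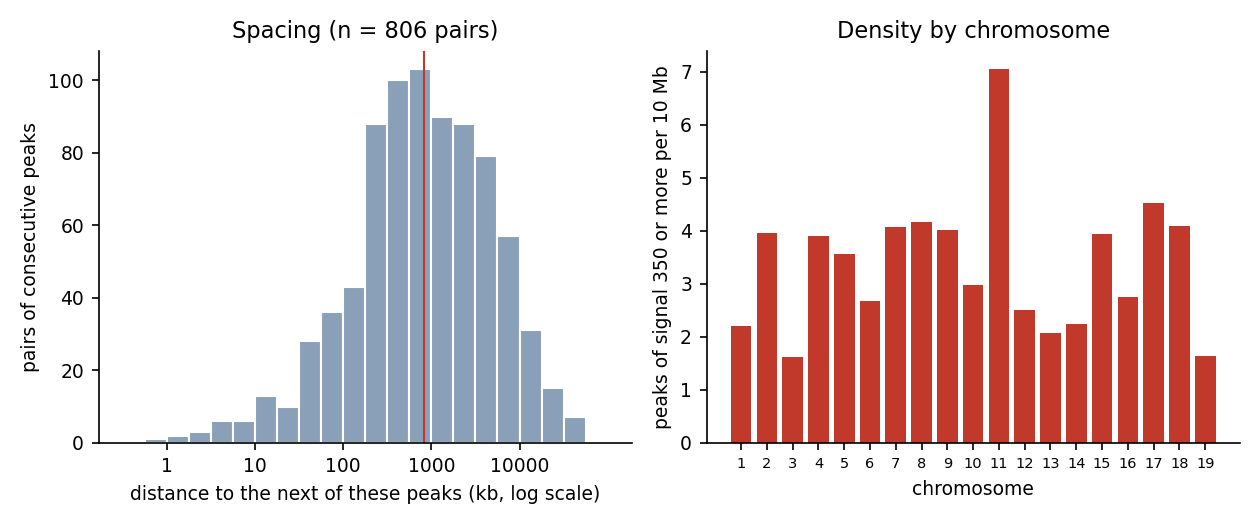
Left, number of pairs of consecutive members (vertical) by the distance between them (kb, log scale), with the median of 833 kb as a red line; right, members per 10 Mb (vertical) on each autosome (horizontal). Chromosome 11 has the highest density, 7.04 per 10 Mb, and chromosomes 3 and 19 the lowest, 1.62 and 1.63.

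Density varied by chromosome. Chromosome 11 held 86 members, 7.04 per 10 Mb and 2.34% of its optimal peaks (interval 1.88 to 2.88). Chromosome 19 held 10, which was 1.63 per 10 Mb and 0.685% of its optimal peaks (0.329 to 1.26), although its density of all optimal peaks, 238 per 10 Mb, was among the higher ones. Chromosome 18 had the highest share of optimal peaks that were members, 2.45% (37 of 1511, 1.73 to 3.36), at a lower density of all optimal peaks, 167 per 10 Mb. Chromosome 3 held 26, with 1.06% of its optimal peaks (0.696 to 1.56).

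The strands of neighbouring members changed with distance. Over the 790 consecutive pairs of members with a motif, 395 were tandem, 198 convergent (facing each other) and 197 divergent, and the last 2 totals are tied to each other because such pairs alternate along a chromosome. Of the 103 pairs under 100 kb apart, 50 (48.5%, interval 38.6 to 58.6) were divergent, 42 tandem and 11 (10.7%, 5.45 to 18.3) convergent. At 100 kb to 1 Mb, 101 of 322 (31.4%, 26.3 to 36.7) were convergent and 67 (20.8%, 16.5 to 25.7) divergent. Beyond 1 Mb the shares were 23.6% and 21.9%, with intervals that overlap. Convergent pairs were thus a smaller share under 100 kb than at either longer distance, while tandem and divergent pairs together were most pairs at every distance. Other optimal peaks were not counted in this way.

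The 825 members had 766 nearest protein-coding genes, by the first TSS. Of these genes 708 were nearest to 1 member and 57 to 2. The median distance was 18127 bp, and 107 members lay within 1 kb of a first TSS. Across all 20807 autosomal protein-coding genes, 13.3% had a member within 100 kb of the first TSS, and 0.836% had one within 1 kb of any TSS. Gene lists are read against those values.

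Limb patterning genes had a member within 100 kb in 5 of 50 cases (interval 3.33% to 21.8%), near the background of 13.3%, and none within 1 kb of a TSS. Epha4, which encodes an ephrin receptor, had one 1357 bp upstream with 192.8 and 197.2. Shh, the posterior limb signal, had one 15874 bp downstream of its TSS with 187.6 and 172.2. The others were Fgf4, a signal of the apical ridge, with 211.8 and 202.8 at 90277 bp, Lmx1b, a dorsal limb factor, with 207.6 and 185.2 at 82058 bp, and Msx2 with 196.5 and 179.6 at 46384 bp. The Fgf4 member lay inside Ccnd1, its nearest gene, 553 bp from a TSS.

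Of the 39 Hox genes 11 had a member within 100 kb (28.2%, 15.0 to 44.9), but all 11 were HoxA genes around a single peak, so they count as 1 site. That peak lay 39 bp inside Hoxa7 on chromosome 6 (summit 52221815) with 180.8 and 179.8, between the anterior and posterior genes of the cluster. The Hoxb, Hoxc and Hoxd genes listed had none. At promoters, 1 of 39 Hox genes (2.56%) had a member, against 0.836% of all genes.

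Cartilage and bone genes had a member nearby in 6 of 35 cases (17.1%, 6.56 to 33.6) and skeletal muscle genes in 3 of 36 (8.33%, 1.75 to 22.5). The first included the collagen genes Col2a1 with 206.9 and 202.9 at 52067 bp, Col11a2 with 236.5 and 218.6 at 95950 bp and Col1a1 with 188.0 and 191.2 at 42881 bp. Among muscle genes, the troponin gene Tnni1 had a member 26320 bp upstream with 224.6 and 186.9. Liver genes, a list for another organ, reached 6 of 27 (22.2%, 8.62 to 42.3). Among them Hnf4a had 237.8 and 197.3, at a member 95 bp upstream of Fitm2. Neuronal genes reached 2 of 28 (7.14%, 0.877 to 23.5). All these intervals include the background of 13.3%.

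Genes of the cohesin and CTCF machinery had a member within 100 kb in 5 of 16 cases (31.2%, interval 11.0 to 58.7, which includes the background of 13.3%). A member 13992 bp upstream of Ctcf itself had 194.0 and 181.1. Wapl, which releases cohesin from DNA, had one 56926 bp upstream with 190.3 and 174.2, and Ctcfl, the germline relative of Ctcf, one with 195.6 and 203.3. Imprinted genes reached 5 of 36 (13.9%, 4.67 to 29.5), where H13 and Mcts2 shared a member and Blcap and Nnat shared another, so these are 3 sites. Within 1 kb of any TSS, 2 of 36 imprinted genes (5.56%) had a member, against 0.836% of all genes, a count too low to compare. H13 was 1 of these, with its member 55 bp upstream. The other was not among the 5 genes above, so its member lay more than 100 kb from its first TSS. Housekeeping genes reached 5 of 30 (16.7%, 5.64 to 34.7), and Rplp0, a ribosomal stalk gene, was the 1 with a member at its promoter, with 211.5 and 177.2.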

How the data were processed

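CTCF peak lists of 2 limb libraries were analysed as deposited. Per the labels, these are biological replicates 1 and 2 with 1 shared identifier for the tissue sample. Each list gives, per the notes deposited with the libraries, peaks on mm10 derived from filtered alignments. The aligner, peak caller, control and IDR threshold remain not given in the sources used here. Signal as deposited, the deposited −log10 q-value (capped, at the cap for all members) and the deposited IDR score (1000 for all members) are the authors' values and were not recomputed. The control library was not analysed here.

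The members and gene lists were chosen with earlier results of these data known. Each member took its replicate values from the closest summit, at most 100 bp away, in each replicate list. Summits were classed with GENCODE M21 on GRCm38.p6 as promoter, exon, intron or intergenic, in that order. The matrix was refined over 10 rounds on the 1000 strongest non-member peaks of odd-numbered autosomes. Medians, shares and intervals were computed with Python 3.11.15, numpy 2.4.6, pandas 2.3.3, scipy 1.17.1 and pysam 0.24.0, and the steps were tested on simulated data. Nothing was tested for significance. The alternatives were other thresholds, the conservative list, each replicate alone, other promoter, motif and gene distances, and protein-coding genes only. Named items were the 20 strongest members, the 5 strongest per class, without a motif and in repeats, the closest and farthest neighbours, the extreme replicate ratios, the threshold's edges, the 3 strongest per gene list and genes nearest to 3 members. Not all are printed, and a few further listed genes were named after their values were seen.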

Additional observations from a re-analysis of the deposited data

How the results depend on the processing

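No paired analysis was possible because the 2 libraries form 1 group. Choosing as many peaks by 1 replicate alone gave second-motif shares of 25.6% to 27.3%, promoter shares of 24.0% to 24.6%, exon shares of 6.06% with either replicate, intron shares of 29.0% to 31.0%, intergenic shares of 38.9% to 40.4%, a median spacing of 811 to 850 kb and 45 to 51 listed genes near a member, against 48 of all lists in the report. A threshold of 300 gave 2033 members, a second motif in 18.6%, a spacing of 343 kb, a median absolute log2 ratio between replicates of 0.0825 in place of 0.0737, and 86 listed genes. A threshold of 400 gave 274 members, a motif in 98.9%, a second motif in 43.8%, a spacing of 2810 kb and 10 listed genes. Promoters of 500 bp held 17.1% and exons then 7.64%. Promoters of 5 kb held 46.1%, with 2.55% exonic, 20.5% intronic and 30.9% intergenic. With protein-coding genes only, 19.3% were promoter, 26.7% intronic and 49.3% intergenic. The stricter score left a motif in 89.7% and a second motif in 11.6%, and a 25 bp window a motif in 93.0%. Within 50 kb 29 listed genes had a member, and within 250 kb 91. Fewer or more peaks, or a narrower or wider window, change these counts by construction. The conservative list held all 825 members at the same threshold. The signal is pooled over only 2 libraries of unknown depth.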

Other observations

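Members were not spread evenly along the chromosomes. The last 20 Mb of an autosome held 228 of the 825 (27.6%, interval 24.6 to 30.8) and 21.7% of the other optimal peaks. This distance was chosen after the data were seen.

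Chromosome X held 1153 optimal peaks, and 1 of them passed 350, at summit 94865737 near Zxdb, with a signal of 440.8. On the autosomes 825 of 48806 passed, with shares by chromosome from 0.685% to 2.45%. The limbs came from male and female embryos, and whether that bears on the count on chromosome X was not tested.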
